A study of Mus musculus with 6 samples.

Results

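The 33 genes described here act in the interferon response or in the display of antigen and were found in the table by their gene symbols. They are 33 of the 46983 annotated features in the deposited table, and 32 of them were among the 15153 features expressed highly enough to be tested. The RNA came from oligodendrocytes, which wrap axons of the brain in myelin, taken uncultured from FvB/C57BL6 hybrid mice. There were 3 WT control libraries and 3 Qk-KO libraries, from mice with the genotype Plp-CreERT2;QKLoxP/LoxP. In these mice a Cre recombinase that tamoxifen activates is driven by the promoter of Plp, a myelin gene, and acts on a loxP-flanked part of Qk, which encodes the RNA-binding protein quaking. Mice of both genotypes were 8 weeks old at the tamoxifen injection and were killed for isolation of the cells 4 days afterwards. Whether the controls carried the Cre transgene or floxed alleles, how the cells were isolated, and whether each library is a separate mouse are not stated in the labels, so p-values measure only the spread between these libraries.

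Interferons are secreted in response to foreign nucleic acid or by activated lymphocytes. Type I interferon signals through JAK kinases to a complex that includes STAT2 and IRF9 and binds the interferon-stimulated response element, a DNA motif in the promoters of antiviral genes such as Ifit1 and Isg15. Interferon gamma raises the genes of the major histocompatibility complex (MHC). MHC class I shows peptides from inside the cell to CD8+ T cells and is found on most cells at some level. MHC class II shows peptides taken up from outside to CD4+ T cells and is made mainly by microglia, macrophages, dendritic cells and B cells.

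The promoter windows of several members held a match to the core of the response element. The core of the element was searched for as GAAA, any 2 bases, then GAAA, on both strands, over the 250 bases before the transcription start in RefSeq (GRCm38.p6). Of the 24 members with such a window, 7 (29.2%) held it, against 3.46% of the 27025 genes with a window. The 7 members were B2m, Stat2, Ifit1, Ifit3, Isg15, Bst2 and Rsad2. The stretches below hold matches to this core in members named above. Whether these genes are driven through them was not measured here. Each is read 5′ to 3′ on the strand of its gene, capitals mark the core, and on the opposite strand the core reads TTTC, 2 bases, TTTC.
Ifit1, chr19:34640745-34640853, plus strand: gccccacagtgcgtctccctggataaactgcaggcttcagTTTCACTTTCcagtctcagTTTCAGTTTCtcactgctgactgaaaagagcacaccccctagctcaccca
Ifit3, chr19:34583333-34583456, plus strand: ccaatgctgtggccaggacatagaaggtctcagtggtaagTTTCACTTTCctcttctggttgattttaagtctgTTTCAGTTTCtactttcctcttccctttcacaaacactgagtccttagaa
Isg15, chr4:156200835-156200936, minus strand: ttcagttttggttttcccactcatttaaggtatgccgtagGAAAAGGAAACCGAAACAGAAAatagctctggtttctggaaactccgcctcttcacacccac
Bst2, chr8:71537547-71537642, minus strand: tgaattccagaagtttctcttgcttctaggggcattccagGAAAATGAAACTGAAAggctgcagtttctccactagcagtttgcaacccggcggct
Rsad2, chr12:26456523-26456612, minus strand: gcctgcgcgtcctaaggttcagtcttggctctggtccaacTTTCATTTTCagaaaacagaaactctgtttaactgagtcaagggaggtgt
B2m, chr2:122147508-122147597, plus strand: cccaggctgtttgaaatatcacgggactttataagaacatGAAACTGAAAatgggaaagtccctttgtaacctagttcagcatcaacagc

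Counted back from the start, the core began at -104 and -85 in Ifit1 and at -156 and -122 in Ifit3. Isg15 held 3 overlapping copies between -78 and -66, and Bst2 held 2 overlapping copies at -130 and -124. Rsad2 and B2m held 1 copy each, at -120 and -139, and Stat2 held 1 at -222. A looser motif, the gamma-activated site, searched for as TTC, any 3 bases, then GAA, was in the windows of Psmb8, Ifit2 and Bst2, which is 12.5% of the 24 members against 8.13% of all genes with a window. A motif match is a description of these windows and not a measured binding site.

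The libraries differed in make-up, and this touches every result below. Ribosomal features took 59.8% to 64.8% of the signal in all WT libraries and in Qk-KO replicate 1, but 2.23% in Qk-KO replicate 2 and 1.88% in Qk-KO replicate 3. Outside these features the latter pair held about 77100000 and 70000000 reads, and the remaining libraries 8700000 to 13100000. The deposited values are regularized log2 values, scaled by the authors and pulled toward the mean of a gene where reads are few, and all levels and differences below are on that scale unless given per kilobase. Qk itself, measured over the whole gene, was 15.42, 15.67 and 15.31 in WT against 16.10, 15.62 and 15.30 in Qk-KO (change 0.21, standard error (SE) 0.25, adjusted p = 0.567). A whole-gene value also counts reads outside the deleted part, so it does not check the labels, and Qk-KO means here a library labelled so. Oligodendrocyte markers were abundant in every library: the 15 listed genes, including Mog, Opalin and Gjb1, summed to a back-transformed level of 565210 to 736460 in WT and 753510 to 853380 in Qk-KO. Markers of other cells were present too. The 20 microglia markers summed to 22015 to 26974 in WT against 42991, 47970 and 170930 in Qk-KO. Astrocyte markers summed to 126800 to 158550 in WT and 19934 to 30904 in Qk-KO. If each library is scaled by its total alone, ribosomal signal included, the median change of all features moves from 0.03 to 1.09; the changes below are relative to the former, and the falls of Ifnar1, Samhd1, Gbp4, Gbp7, Mrc1, Ccr2, Ly6c2, Zbtb46 and Kdr then lie above 0 but below that median. In such bulk RNA, more cells of a type and more RNA per cell cannot be told apart.

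Taken as a group, the 33 genes showed no common change with genotype. Of the 32 tested, 1 rose in Qk-KO (Xaf1) and none fell, at an adjusted p under 0.05 over all 15153 features. At an unadjusted p under 0.05 the count was also 1 of 32, against 6378 of the 15153 features. Over all features tested, 28.6% were called, 2087 higher and 2243 lower, so the 3.13% of members called lies well under the share among all features. The median change of the members was 0.14, against 0.03 for all features; 23 were positive and 9 negative. The groups did not overlap for 4 of the 32 members (12.5%), against 46.3% of all features. In the authors' deposited table, 2 of 31 members with an adjusted p passed, B2m and Xaf1, against 32.9% of the tested features that have one there.

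**Figure D1:**
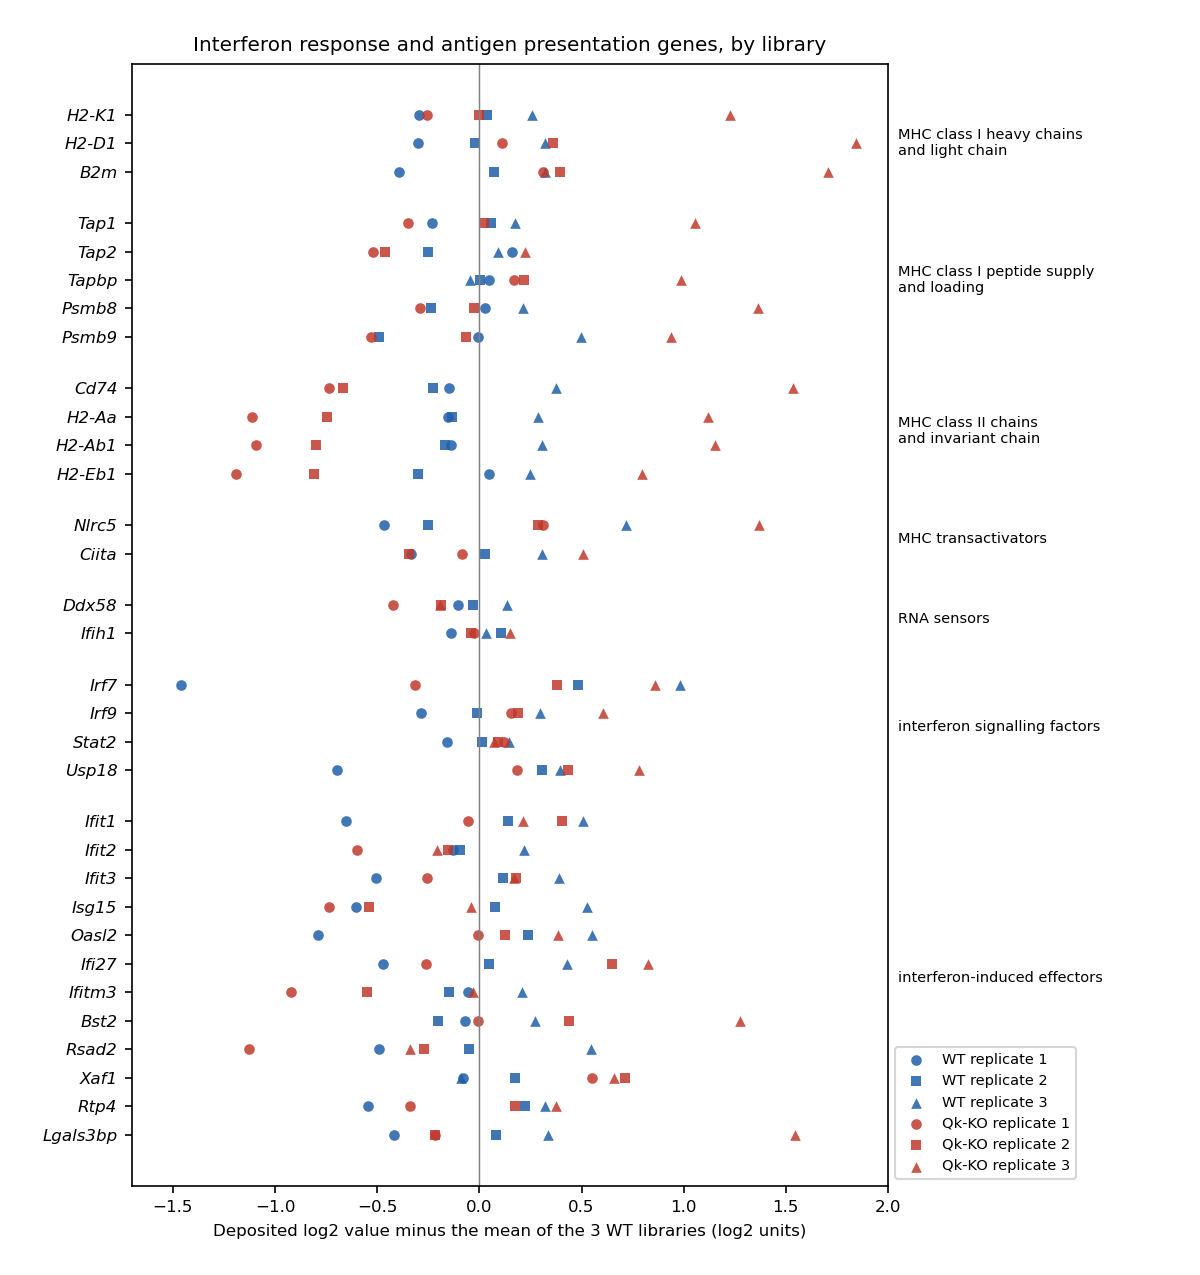
Regularized log2 value of each of the 32 tested genes in each library, minus the mean of the 3 WT libraries, in log2 units, WT being blue and Qk-KO red, and a marker shape standing for each replicate number. The red triangle, Qk-KO replicate 3, is the highest point for 21 genes, and the blue circle, WT replicate 1, is the lowest for 15.

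The members varied more between libraries of 1 genotype than most features did. Their median standard deviation (SD) was 0.30 among WT libraries and 0.47 among Qk-KO libraries, against 0.16 and 0.19 over all features tested. Qk-KO replicate 3 was the highest of the 6 libraries for 21 of 32 members (65.6%, against 23.1% of all features), and for 13 members it stood over 0.5 above every other library. WT replicate 3 was the highest for 10, and Qk-KO replicate 2 for the remaining member, Xaf1. At the low end, WT replicate 1 was the lowest library for 15 members (46.9%, against 18.9%) and Qk-KO replicate 1 for 13 (40.6%, against 16.6%). The 95% interval of a change had a median half-width of 0.73 for the members. That interval is not adjusted for the number of features tested, as a call is. In a typical member a change of this size or smaller, and some larger ones, could therefore go uncalled.

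Levels between genes are compared here per kilobase of annotated exon, as back-transformed signal. B2m stood highest in WT at 2576 ± 622 (SD, n = 3), followed by Cd74 at 1149 ± 275, H2-D1 at 933 ± 203 and H2-K1 at 759 ± 142. The spreads of Cd74, H2-D1 and H2-K1 overlap. Ifitm3 (604 ± 79.4), Ifi27 (478 ± 145) and Tapbp (391 ± 12.6) came next. At the low end were Psmb9 (15.7 ± 5.32), Ciita (3.83 ± 0.832) and Mx1 (3.21 ± 0.283). In Qk-KO the same measure was 4901 ± 2899 for B2m and 1552 ± 1487 for Cd74, spreads set by Qk-KO replicate 3 at 8246 and 3268.

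The MHC class I chains were higher in Qk-KO replicate 3 than in any other library, and no change with genotype was called with genotype as the only term. H2-K1 and H2-D1 encode the classical heavy chains and B2m the light chain, beta-2 microglobulin, that every class I molecule needs. H2-K1 was 10.81, 11.14 and 11.36 in WT against 10.85, 11.10 and 12.33 in Qk-KO, with each group in the order of its replicate numbers here and throughout. H2-D1 was 10.91, 11.19 and 11.53 in WT against 11.32, 11.57 and 13.05 in Qk-KO. B2m was 10.69, 11.16 and 11.41 in WT against 11.40, 11.48 and 12.79 in Qk-KO. Qk-KO replicate 1 lay within the WT range for each gene and replicate 2 within it for H2-K1 and just above it for H2-D1 and B2m, while Qk-KO replicate 3 stood 0.97 to 1.48 above the next library for these genes. The changes were 0.32 (SE 0.36, adjusted p = 0.523) for H2-K1, 0.77 (SE 0.41, adjusted p = 0.194) for H2-D1 and 0.81 (SE 0.37, adjusted p = 0.133) for B2m. The interval for B2m ran from -0.04 to 1.65. B2m was called with the replicate number as a block (adjusted p = 0.0328). Both B2m (1.13, adjusted p = 0.0050) and H2-D1 (1.11, adjusted p = 0.0173) were called with the sample number series as a term. That series was set here from the sample numbers in the labels. It puts WT replicate 1 and Qk-KO replicates 1 and 2 apart from WT replicates 2 and 3 and Qk-KO replicate 3. The labels do not say what it marks. In the authors' deposited table B2m was 1.03 (SE 0.38) with an adjusted p of 0.0282. Of the sequence of H2-D1 and H2-K1, 12.8% and 9.63% of the stretches of 50 bases also occur in other MHC genes, so reads there could be assigned to either, and the MHC haplotypes that the hybrid mice carried are not given in the labels.

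Genes that make and load class I peptides were also highest in Qk-KO replicate 3, and none was called. Tap1 and Tap2 form the transporter that carries peptides into the endoplasmic reticulum, Tapbp (tapasin) holds it to the empty class I molecule, and Psmb8 and Psmb9 are subunits of the immunoproteasome. Tapbp was 10.51, 10.47 and 10.42 in WT against 10.64, 10.69 and 11.46 in Qk-KO. Its groups did not overlap and the WT libraries lay within 0.09, but the change of 0.46 (SE 0.21, adjusted p = 0.138) was not called. Exons of other annotated genes cover 29.0% of its exon bases, which leaves its count uncertain if strand was not used. Tap1 was 7.51, 7.80 and 7.92 in WT against 7.39, 7.76 and 8.80 in Qk-KO, and Tap2 was 9.45, 9.03 and 9.38 against 8.77, 8.82 and 9.51. Psmb8 was 7.53, 7.26 and 7.71 in WT against 7.21, 7.48 and 8.87 in Qk-KO. Psmb9 was 5.78, 5.29 and 6.28 in WT against 5.25, 5.72 and 6.72 in Qk-KO. In all 5 genes Qk-KO replicate 3 was the highest library, by only 0.06 for Tap2, and all but Tapbp were lowest in Qk-KO replicate 1, below every WT library. Their changes ran from -0.25 to 0.46, 4 positive and 1 negative, with none called. Overlapping exons cover 18.5% of Tap2 and 14.7% of Psmb8.

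MHC class II genes separated the Qk-KO libraries more than any other group of members, with a median SD of 1.21 among them against 0.27 among WT. Cd74 encodes the invariant chain that guides class II molecules to the compartment where peptides are loaded, H2-Aa and H2-Ab1 the alpha and beta chains of the I-A molecule, and H2-Eb1 the beta chain of I-E. Cd74 was 10.74, 10.66 and 11.26 in WT against 10.15, 10.22 and 12.42 in Qk-KO. H2-Aa was 9.54, 9.56 and 9.98 in WT against 8.58, 8.95 and 10.81 in Qk-KO. H2-Ab1 was 9.24, 9.21 and 9.68 in WT against 8.29, 8.58 and 10.53 in Qk-KO. For each of these genes Qk-KO replicates 1 and 2 lay below every WT library and Qk-KO replicate 3 above every one. H2-Eb1 had the same order, at 9.35, 8.999 and 9.55 in WT against 8.11, 8.49 and 10.09 in Qk-KO. With all 6 libraries no gene of the 4 was called: the changes were 0.04 (SE 0.55) for Cd74, -0.25 (SE 0.51) for H2-Aa, -0.25 (SE 0.52) for H2-Ab1 and -0.40 (SE 0.46) for H2-Eb1, with adjusted p-values from 0.539 to 0.961.

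Without Qk-KO replicate 3, all 4 class II genes fell. The changes were -0.70 for Cd74 (SE 0.19, adjusted p = 0.0251), -0.93 for H2-Aa (SE 0.19, adjusted p = 0.00767), -0.95 for H2-Ab1 (SE 0.19, adjusted p = 0.00742) and -0.999 for H2-Eb1 (SE 0.20, adjusted p = 0.00758). The direction turned with the libraries used: without Qk-KO replicate 1 the median of the 4 changes was 0.18, with the sample number series as a term it was 0.14, and none was called in either. In the authors' deposited table Cd74 (0.42), H2-Aa (0.13) and H2-Ab1 (0.15) were above 0 and H2-Eb1 was -0.11. That table gave Cd74 no p-value. Over all alternatives the adjusted p-values of these genes ran from 0.00742 to 0.998. In the comparison without Qk-KO replicate 3, 6 of 32 members were called (18.8%, against 25.3% of all features). Of these, 5 were lower (15.6%, against 13.9% of all features called lower). The fifth lower member was Ifitm3, and the member called higher was Xaf1. When Qk-KO replicate 1, the only Qk-KO library with a ribosomal content like that of WT, was set alone against WT, 4 members were called (12.5%, against 15.5% of all features), all of them lower (12.5%, against 9.37% called lower). They were H2-Aa (-1.11, adjusted p = 0.0134), H2-Ab1 (-1.09, adjusted p = 0.0178), H2-Eb1 (-1.19, adjusted p = 0.0145) and Ifitm3 (-0.92, adjusted p = 0.0270). Cd74 was -0.74 there with an adjusted p of 0.0774. With ribosomal content as a term over all 6 libraries, the class II changes equal those of Qk-KO replicate 1 alone by construction (median -1.10). That fit is therefore no second estimate of their size. Its SEs for these genes were 0.54 to 0.71 and none was called. The comparison of Qk-KO replicate 1 alone has 1 library in an arm, which is assumed to vary as the WT libraries do.

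Markers of cells that make class II moved in several ways across the same libraries. The summed back-transformed level of the 4 class II genes was 3704, 3475 and 5038 in WT against 2107, 2426 and 9853 in Qk-KO. Markers of border and perivascular macrophages, 10 genes of which 7 were tested, summed to 2623, 2136 and 2650 in WT against 1636, 1612 and 2746 in Qk-KO, and had a median, relative to the WT mean, of 0.05, 0.00 and 0.19 in WT against -0.11, -0.54 and 0.00 in Qk-KO. Qk-KO replicate 3 was the highest library for 2 of the 7 and the lowest for 2; the sum there includes Cbr2, named after its values were seen, at 8.91 against 4.95 to 5.72 in the other libraries. In that list 1 of 7 fell (14.3%, against 28.6% of all features called), the mannose receptor gene Mrc1 (-0.68, adjusted p = 0.0110). Stab1 was -0.43 (adjusted p = 0.209). Of the 20 microglia markers 8 rose and none fell (40% called, against 28.6% of all features), among them Trem2 (2.74) and C1qa (2.44). The authors' deposited table gave neither Trem2 nor C1qa a p-value. Over the list 18 changes were above 0 and 2 below, P2ry12 (-0.29) and Sall1 (-0.44). Tmem119 and Siglech, both at 0.19, were also not called. All 3 Qk-KO libraries were above all WT libraries in the sum of the list. That sum includes Ctsd, at 16.4 in Qk-KO replicate 3 against 13.2 to 14.5 in the other libraries. P2ry12, Sall1, Tmem119, Siglech and Ctsd are named after their values were seen. Among monocyte and neutrophil markers 2 of 8 fell, Ccr2 (-0.79) and Ly6c2 (-0.80), and none rose (25% called, against 28.6% of all features). Csf3r of that list, named after its values were seen, was 1.03 with every Qk-KO library above every WT library. It was not called (adjusted p = 0.0628), but had an adjusted p of 0.00848 in the authors' deposited table. With 1 library left out, adjusted p-values reached 0.0575 for C1qa, 0.0505 for Mrc1, 0.109 for Ccr2 and 0.0788 for Ly6c2, so that these calls can be lost. Of 8 dendritic cell markers 4 were tested and 2 called. Itgax, which activated microglia also express, rose by 2.97, with no p-value in the authors' deposited table. Zbtb46 fell by 0.78, and which cells its RNA came from was not tested. Of 15 lymphocyte markers 4 were tested and none called; Cd3d was at 0 in every library, and the B cell genes Cd79a and Cd79b had changes of -0.69 and -0.35. In the lists of other neural cells, 7 of 15 oligodendrocyte markers rose and 2 fell (60% called, against 28.6% of all features). The other shares called were below that of all features. Of markers of oligodendrocyte precursors 1 of 8 fell (12.5%), 2 of 12 neuron markers rose (16.7%) and 2 of 8 ependymal and choroid plexus markers fell (25%). The part of these cells in the class I and class II values was not tested.

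**Figure D2:**
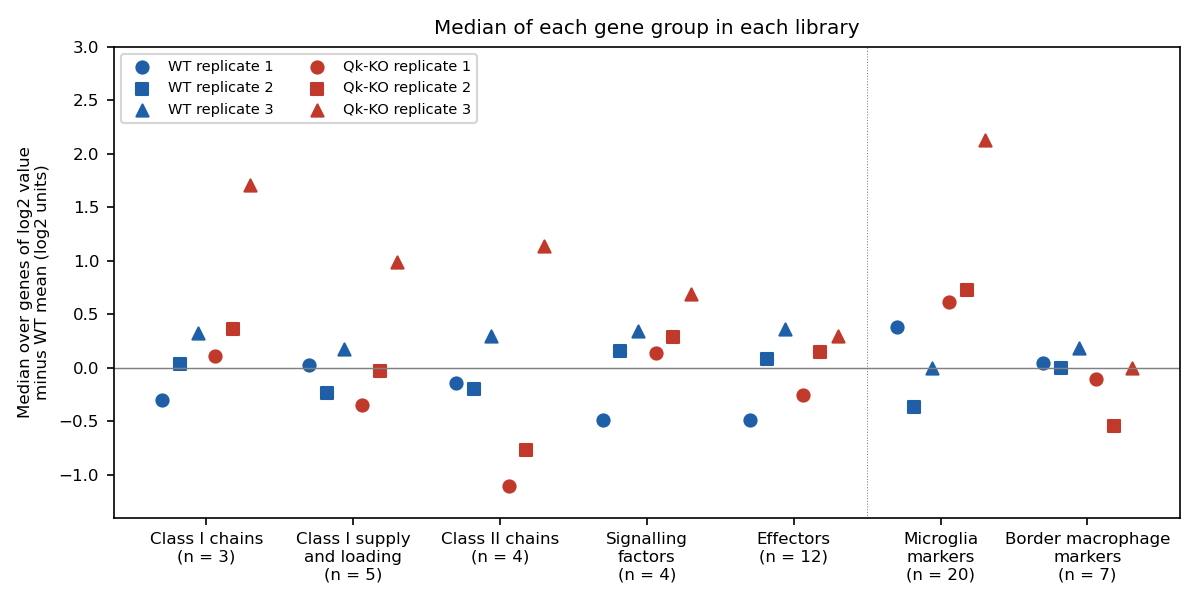
Median over the genes of each named group of the regularized log2 value minus the mean of the 3 WT libraries, in log2 units, for each of the 6 libraries (WT blue, Qk-KO red, marker shape by replicate number), with the microglia and border macrophage markers beside the member groups. Class II stands at -1.10 and -0.77 in Qk-KO replicates 1 and 2 and at 1.14 in Qk-KO replicate 3, where the microglia markers stand at 0.61, 0.72 and 2.13.

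The transactivators that switch on these genes were weakly expressed. Nlrc5, the activator of class I genes, was 6.71, 6.92 and 7.89 in WT against 7.48, 7.46 and 8.54 in Qk-KO, a change of 0.66 (SE 0.38, adjusted p = 0.229) with overlapping groups. Ciita, the master activator of class II genes, was 4.83, 5.19 and 5.47 in WT against 5.08, 4.82 and 5.67 in Qk-KO. Its change was 0.02 with an interval from -0.56 to 0.61, and its order over the Qk-KO libraries matched that of the class II chains only in that replicate 3 was highest.

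The RNA sensors were among the steadiest members. Ddx58 encodes RIG-I and Ifih1 encodes MDA5, which detect viral RNA in the cytoplasm and lead to the production of type I interferon. Ddx58 was 8.36, 8.43 and 8.59 in WT against 8.04, 8.27 and 8.27 in Qk-KO. All 3 Qk-KO libraries lay below all WT libraries, but the change of -0.27 (SE 0.14, adjusted p = 0.180) was not called. Ifih1 was 8.36, 8.61 and 8.54 in WT against 8.48, 8.46 and 8.66 in Qk-KO, and the interval of its change ran from -0.28 to 0.34.

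The signalling factors that carry the interferon response were lowest in WT replicate 1. Irf7 amplifies type I interferon production, Irf9 and Stat2 form the complex that binds the response element, and Usp18 damps the receptor. Irf7 was 5.21, 7.15 and 7.65 in WT against 6.36, 7.05 and 7.53 in Qk-KO. The WT libraries alone spanned 2.44, the widest WT range of the members, and covered every Qk-KO value. Irf9 was 8.03, 8.30 and 8.61 in WT against 8.47, 8.51 and 8.92 in Qk-KO. Stat2 was 9.35, 9.52 and 9.65 in WT against 9.63, 9.60 and 9.58 in Qk-KO, which places all Qk-KO libraries inside the WT range. Usp18 was 5.26, 6.27 and 6.35 in WT against 6.14, 6.39 and 6.74 in Qk-KO. The 4 changes were 0.31 for Irf7, 0.32 for Irf9, 0.09 for Stat2 and 0.46 for Usp18, with SEs of 0.60, 0.19, 0.12 and 0.31 and none called.

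Xaf1 was the 1 member that rose with all 6 libraries. It encodes XIAP-associated factor 1, an interferon-induced protein that counteracts the apoptosis inhibitor XIAP. It was 8.65, 8.90 and 8.64 in WT against 9.28, 9.45 and 9.39 in Qk-KO. Every Qk-KO library was above every WT library, and the 3 Qk-KO values lay within 0.17, in contrast to the class I and class II genes. The change was 0.64 (SE 0.13, 95% interval 0.35 to 0.94, adjusted p = 0.00840), a ratio of 1.56. Its rise was called whichever single library was left out, but not when Qk-KO replicate 1 stood alone against WT (0.55, adjusted p = 0.0973), when low ribosomal content was a term (0.55, adjusted p = 0.0720), or when both WT replicate 1 and Qk-KO replicate 3 were left out (0.59, adjusted p = 0.0592). Over all alternatives its adjusted p ran from 0.000399 to 0.0973. In the authors' deposited table its change was 0.81 with an adjusted p of 0.000399. No copy of the response element core was in its window of 250 bases.

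The tetratricopeptide effectors, which bind foreign RNA or hold back its translation, gave no shared change. Ifit1 was 6.30, 7.09 and 7.46 in WT against 6.89, 7.35 and 7.16 in Qk-KO. Ifit2 was 8.28, 8.32 and 8.63 in WT against 7.81, 8.26 and 8.20 in Qk-KO, with the groups apart and a change of -0.32 (SE 0.17, adjusted p = 0.198) that was not called. Ifit3 was 7.63, 8.25 and 8.53 in WT against 7.88, 8.32 and 8.31 in Qk-KO. Qk-KO lay inside the WT range for Ifit1 and Ifit3, whose changes were 0.19 and 0.03. Ifit3 shares 51.2% of its stretches of 50 bases with its near copy Ifit3b, so its level is uncertain.

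Other antiviral effectors with a match to the response element core were also uncalled. Isg15, a ubiquitin-like modifier, was 5.59, 6.27 and 6.71 in WT against 5.45, 5.65 and 6.15 in Qk-KO (change -0.44, SE 0.31). Rsad2, which encodes viperin, was 6.70, 7.15 and 7.74 in WT against 6.07, 6.92 and 6.86 in Qk-KO (change -0.58, SE 0.32), the lowest change of the members. Bst2 encodes tetherin, which holds budding viruses at the membrane, and was 6.81, 6.68 and 7.15 in WT against 6.87, 7.32 and 8.15 in Qk-KO (change 0.57, SE 0.31). The groups overlapped for all 3 genes, and adjusted p-values were 0.307, 0.203 and 0.204. Without Qk-KO replicate 1, Bst2 was 0.86 with an adjusted p of 0.0467, the smallest of its alternatives, which reached 0.995. Over the 7 members with the response element core the changes ran from -0.58 to 0.81 with a median of 0.09 and none called. Over the 17 with a window but no core the median was 0.24 and 1 was called.

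Among the remaining effectors, Ifitm3, which blocks viral entry at endosomes, was 8.62, 8.52 and 8.88 in WT against 7.75, 8.12 and 8.64 in Qk-KO. Its change was -0.50 (SE 0.23, adjusted p = 0.135), and without Qk-KO replicate 3 it fell by 0.74 (adjusted p = 0.0209, with a range of 0.0209 to 0.416 over its alternatives). Of its stretches of 50 bases 10.02% occur in other genes of its family. Ifi27, a small interferon-induced membrane protein gene, was 8.93, 9.45 and 9.84 in WT against 9.15, 10.05 and 10.23 in Qk-KO. Lgals3bp, a secreted galectin-binding protein gene, was 9.40, 9.90 and 10.15 in WT against 9.59, 9.60 and 11.36 in Qk-KO, where replicate 3 stood 1.21 above the next library. Oasl2, of the oligoadenylate synthetase family, was 6.40, 7.42 and 7.74 in WT against 7.18, 7.31 and 7.57 in Qk-KO. Rtp4, which encodes a receptor chaperone, was 5.75, 6.52 and 6.62 in WT against 5.96, 6.47 and 6.67 in Qk-KO. Groups overlapped for all 5 genes, with changes of 0.40 for Ifi27, 0.37 for Lgals3bp, 0.17 for Oasl2 and 0.07 for Rtp4. Mx1, a GTPase against influenza viruses, had a mean normalized count of 15.9, under the minimum of 20, and ranged from 3.52 to 3.74 in WT and 3.66 to 4.28 in Qk-KO.

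**Figure D3:**
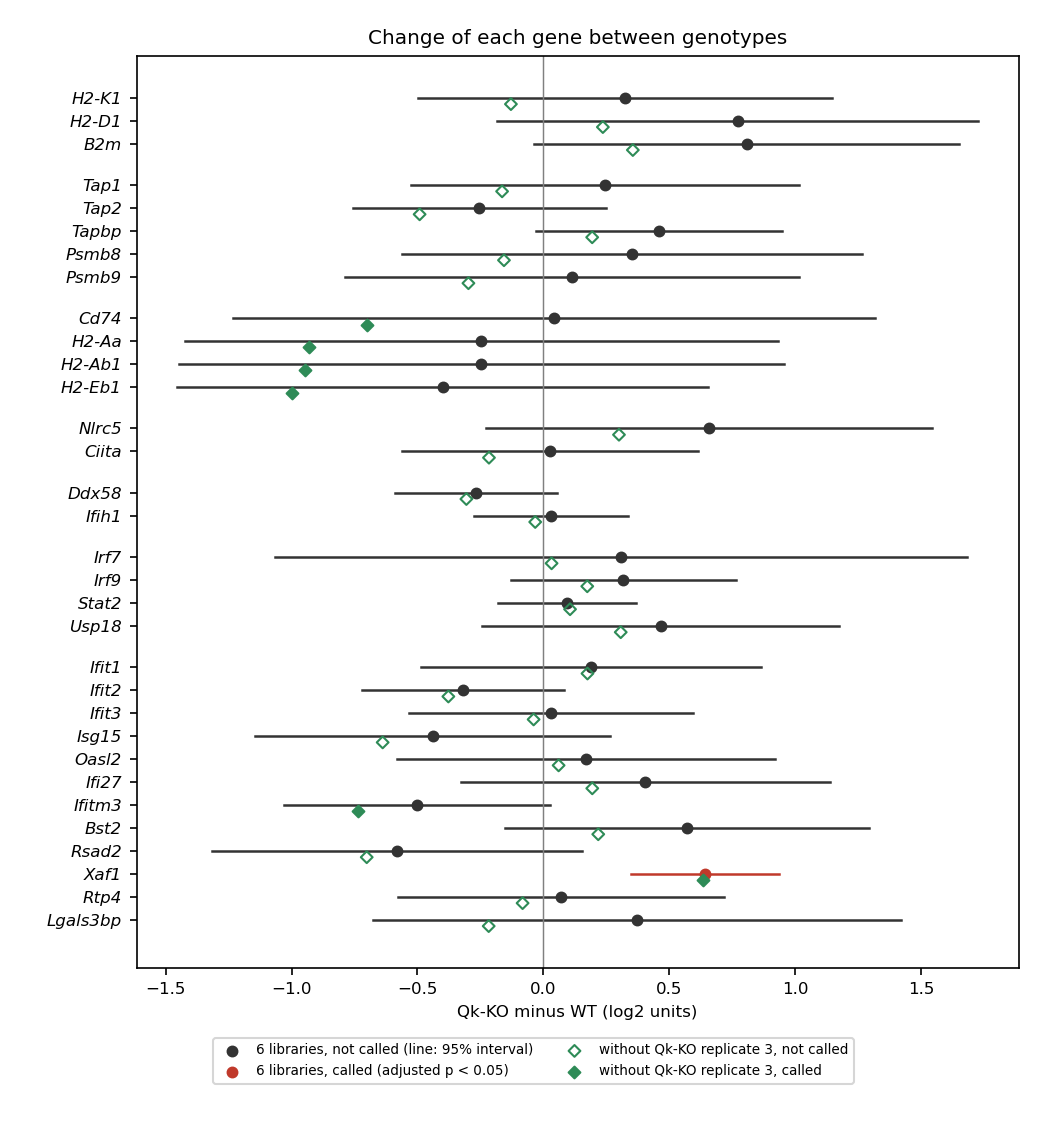
Change of each of the 32 tested genes on the horizontal axis (Qk-KO minus WT, log2 units): circles with lines give all 6 libraries with the 95% interval from limma (red if called), and diamonds the change without Qk-KO replicate 3 (filled if called). The red circle is Xaf1 (0.64), and the filled diamonds of the 4 class II genes lie between -0.999 and -0.70.

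The wider pathway was examined through lists of other genes with the same functions. Interferon genes themselves were at or near 0: of 21 listed, 18 had no read in any library, and the other three were below a mean normalized count of 1. Across the other lists 134 genes were tested, of which 12 rose and 7 fell (14.2%, against 28.6% of all features), with a median change of 0.09. Receptors and proximal signalling had 3 of 19 higher and 1 lower (21.1% called, against 28.6% of all features). The transcription factor gene Irf8, also a lineage gene of microglia, was 7.69, 7.74 and 7.60 in WT against 8.42, 8.53 and 10.15 in Qk-KO (change 1.36, adjusted p = 0.0419). Stat3 (0.59) and Jak2 (0.42) were higher and the type I interferon receptor gene Ifnar1 was lower (-0.41). Each of these 4 calls was lost when any 1 of several libraries was left out. Over all features the calls went from 4330 to 2663, 3437 and 2568 without WT replicate 1, 2 or 3. Without Qk-KO replicate 2 they went to 2370. Irf8 lost its call without WT replicate 1, 2 or 3 (adjusted p = 0.110, 0.0980 and 0.119). Stat3 lost it when Qk-KO replicate 2 was left out (0.0565), or either of the WT libraries 2 and 3 (0.0674 and 0.0850). Ifnar1 lost it when Qk-KO replicate 2 was left out (0.0950), or either of the WT libraries 1 and 3 (0.0978 and 0.0818). Jak2 lost it without any WT library or Qk-KO replicate 2 (0.0518 to 0.126).

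Nucleic acid sensing had 1 of 14 called (7.14%, against 28.6% of all features). Tlr3, the endosomal sensor of double-stranded RNA, was 10.25, 10.44 and 10.29 in WT against 7.71, 7.60 and 7.53 in Qk-KO. Its groups lay far apart and the change was -2.71 (SE 0.12, adjusted p = 5.7e-05). Of 12 astrocyte markers 11 were called lower in the same libraries, with a median change of -2.68 over the list. The 11 included Aldh1l1 (-2.13), Fgfr3 (-2.83) and Slc7a10 (-3.30). The remaining marker, Gfap, named after its values were seen, went the other way. Its change was 0.81 with overlapping groups, and limma did not call it (adjusted p = 0.0526). The DESeq2 comparison of the authors put Gfap at 0.99 (adjusted p = 0.00873). The part of astrocytes in the value of Tlr3 was not tested. Mavs, the adaptor of the RNA sensors, was -0.08 (adjusted p = 0.649).

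Other interferon-induced genes had 5 of 48 higher and 3 lower (16.7% called, against 28.6% of all features), with a median change of 0.05. Trex1, a cytoplasmic DNA exonuclease that limits DNA sensing, was 6.44, 5.22 and 6.60 in WT against 7.49, 7.57 and 7.80 in Qk-KO (change 1.53, SE 0.34, adjusted p = 0.0134). All Qk-KO libraries were above all WT libraries, though in the authors' deposited table Trex1 had an adjusted p of 0.233. Ifi35 (0.96), the RNA helicase gene Znfx1 (0.63) and Zc3hav1 (0.63), which encodes a zinc finger protein that binds viral RNA, also rose. Samhd1, which removes deoxynucleotides and so restricts viruses, fell by 0.68, and was at an adjusted p of 0.0536 without WT replicate 1. The fifth riser was Daxx (0.39), and the other genes that fell were Pml (-0.65) and Ifi203 (-0.52); these 3 are named after their values were seen.

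Interferon-induced GTPases, many of them targets of interferon gamma, had none of 15 higher and 2 lower (13.3%, against 14.8% of all features called lower). Their median change was -0.37, and 13 of 15 changes were below 0, against 7158 of 15153 over all features. Scaled by library size alone, Gbp4 and Gbp7 were above 0, at 0.31 and 0.37, though still below the median of all features. Gbp4, a guanylate-binding protein gene, was 8.43, 8.21 and 8.40 in WT against 7.59, 7.51 and 7.71 in Qk-KO (change -0.74, SE 0.14, adjusted p = 0.00628). Gbp7 was 8.30, 8.57 and 9.05 in WT against 7.91, 7.86 and 8.09 in Qk-KO (change -0.69, SE 0.20, adjusted p = 0.0360). Both genes had every Qk-KO library below every WT library, and Gbp7 lost its call without WT replicate 2 (adjusted p = 0.0777), WT replicate 3 (0.0988), Qk-KO replicate 1 (0.0569) or Qk-KO replicate 2 (0.116). Endothelial markers fell in the same libraries, 12 of 12, among them Cdh5 (-1.15), Flt1 (-1.10) and Kdr (-1.01), and mural cell markers 7 of 10, among them Pdgfrb (-1.31); their part was not tested.

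The remaining lists held other genes of the class I and class II pathways. None of 13 other class I chains was called by limma, and 1 had an unadjusted p under 0.05, against 6378 of the 15153 features. H2-T23 was 0.50 (adjusted p = 0.332) and Fcgrt -0.56 (adjusted p = 0.0910). Of 12 other genes of class I peptide supply 1 rose (8.33%, against 28.6% of all features called). This was the constitutive proteasome subunit gene Psmb7 (0.54, adjusted p = 0.0319). It lost its call without any WT library, Qk-KO replicate 2 or Qk-KO replicate 3 (adjusted p = 0.0650 to 0.122). The chaperone genes Calr and Canx were 0.38 and 0.22 and not called. Among 13 other class II genes and cofactors 3 rose and none fell (23.1% called, against 28.6% of all features). Ctss, the lysosomal protease that trims the invariant chain, was 10.58, 10.04 and 10.35 in WT against 12.01, 12.18 and 14.05 in Qk-KO (change 2.42, SE 0.49, adjusted p = 0.00864). The authors' deposited table gave Ctss a change of 2.40 and no p-value. Lgmn, which encodes the lysosomal protease legumain, was 12.06, 12.05 and 11.98 in WT against 13.04, 13.38 and 13.70 in Qk-KO (change 1.35, SE 0.17, adjusted p = 0.00119). March1, a ubiquitin ligase that removes class II from the cell surface, was 8.26, 8.73 and 8.56 in WT against 9.47, 9.28 and 9.31 in Qk-KO (change 0.84, adjusted p = 0.00572). All 3 cofactors were above WT in every Qk-KO library, including replicates 1 and 2, where the class II chains themselves were below WT. Microglia express Ctss and Lgmn too, and 8 of their 20 listed markers rose in the same comparison, as given above.

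**Figure D4:**
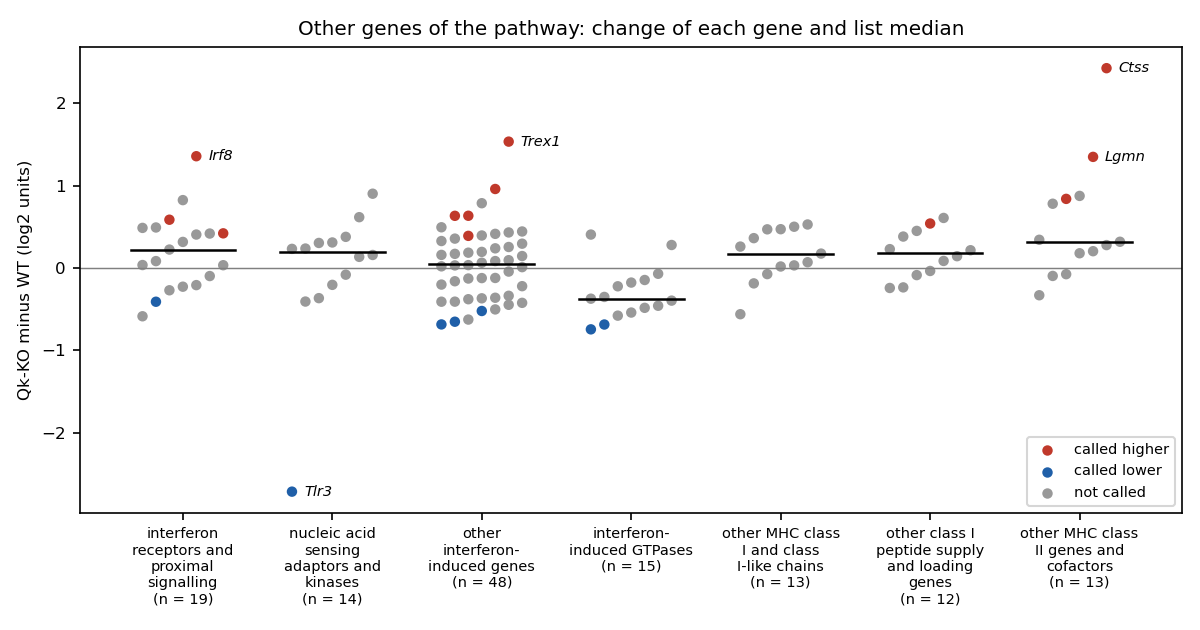
Change (Qk-KO minus WT, log2 units) of each of the 134 tested genes in the 7 other lists of the pathway, as 1 point a gene (red called higher, blue called lower, grey not called), with a bar at the median of each list. The 12 red and 7 blue points are spread over 6 lists, Tlr3 is lowest at -2.71, and the GTPases have the lowest median, -0.37.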

How the data were processed

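FastQC, TopHat2 2.0.14, featureCounts, DESeq2 and the build mm10 are named in the submitters' processing notes. For strand, read length and annotation release, the authors' settings are not given in these sources. The authors deposited regularized log2 values per library, a mean normalized count (a signal averaged over the 6 libraries) and their own comparison, with log2 fold change, standard error, a Wald score, p-value and adjusted p-value, per the file headers. As these are not counts, the count test was replaced by the planned limma 3.58.1 fit with a mean-variance trend (R 4.3.3) on the deposited log2 values, with genotype as the only term and no pseudocount. Testing covered the 15153 features whose mean normalized count reached 20, which is 8.94 to 12.3 reads in the 4 shallower libraries and 75.6 to 83.0 in the deeper ones. Of 26015 features with a read, the rest were too low. P-values were adjusted by Benjamini-Hochberg over all features tested, and under 0.05 is called. Approximate depth was read from the steps of low mean normalized counts.

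The 33 members, the lists of pathway and marker genes and the tests were chosen with earlier results of these data known. Each member is named; from each pathway list up to 4 called genes with the smallest adjusted p are named, from each marker list up to 3, or the 2 most abundant where fewer than 2 were called. Some genes that this rule selects are not reported here. Of the feature identifiers, 46488 of 46983 matched GENCODE M21, which gave exon lengths, overlaps and shared stretches of 50 bases. Promoter sequences are from RefSeq (GRCm38.p6), without the transcribed bases. The script was tested on simulated data. The alternatives covered the filter, each library left out, the replicate number, ribosomal content and sample number series as terms, the variance model, weights, scaling, a pseudocount of 8 and the authors' deposited comparison.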

Additional observations from a re-analysis of the deposited data

How the results depend on the processing

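Of 602 values for single members under the alternatives, 571 kept their direction or stayed uncalled, 26 became called, 3 lost a call and 2 reversed. In 83 of the 602 the sign differed with neither value called. With 1 library left out at a time, 2370 (15.6%, without Qk-KO replicate 2) to 5633 (37.2%, without Qk-KO replicate 1) features were called. The calls among members were 1 to 6 (3.13% to 18.8%), with 0 to 4 class II members (4 without Qk-KO replicate 3) and 1 to 2 effectors. Among genes of the pathway lists there were 12 to 27. Cd74 ran from -0.70 without Qk-KO replicate 3, a reversal, to 0.43 without Qk-KO replicate 1, and reversed to -0.78 with WT replicate 1 left out as well. In that last setting, chosen after seeing the data, 2602 features (17.2%) and 6 members (18.8%) were called. All 6 members were lower (18.8%, against 10.5% of all features called lower): the 4 class II genes and 2 effectors, Isg15 and Ifitm3. With Qk-KO replicate 1 alone against WT, 2355 features, 4 members (3 of class II) and 12 pathway genes were called. With ribosomal content as a term, 2258 features, 0 members, 0 effectors and 8 pathway genes were called by limma, and 5 members had an unadjusted p under 0.05. The share of all features at that unadjusted threshold was not counted for this fit, so the 5 have no background beside them. The median class II change was -1.10, which equals that with Qk-KO replicate 1 alone by construction. With the sample number series as a term, 6 members were higher (18.8%, against 13.8% of all features). They were 2 class I chains (B2m, H2-D1), 1 transactivator (Nlrc5), 1 signalling factor (Usp18) and 2 effectors (Lgals3bp, Xaf1). The authors' deposited table called 2 members, with 1 class I chain (B2m).

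With the replicate block, 3 members were called, 1 class I chain (B2m, adjusted p = 0.0328), 1 transactivator (Nlrc5, adjusted p = 0.0231) and Xaf1. Over all features 4345 were called (28.7%, against 9.38% of the members). The labels do not say that a number marks a shared litter or day, the deviations of same-numbered libraries correlated at 0.104, 0.0046 and 0.082, and WT replicate 2 correlated best with Qk-KO replicate 1 (0.022), so the numbers were not taken as pairs.

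Scaling by library size alone moved the median change of all features from 0.03 to 1.09 and that of the members to 1.199. It called 2447 features (16.1%), 2382 of them higher (15.7%), and 5 members (15.6%), all higher. These members were 2 class I chains, 1 gene of class I supply (Tapbp), 1 transactivator and Xaf1. Under this scaling signs turned for Ifnar1 (0.65), Samhd1 (0.37), Gbp4 (0.31), Gbp7 (0.37), Mrc1 (0.38), Ly6c2 (0.26), Ccr2 (0.27), Zbtb46 (0.28), Kdr (0.053), Myh11 (0.23) and Rarres2 (0.49), all below the median of all features there. The cause of these differences was not tested. Low values limit Mx1, Ciita, Psmb9 and Isg15, whose shrunken log2 values can understate a change.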
